A study of Mus musculus with 35 samples.

Results

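The expression of 32 genes of glycolysis, the pentose phosphate pathway and the hypoxia response was described in microglia sorted from the whole spinal cord of mice. The genes were listed by symbol, with earlier results of these data known. Each matched 1 row of the deposited tables, which hold 45706 genes, and all 32 were among the 13501 genes that passed the filter on low counts. They comprise 3 glucose transporters, 3 hexokinases, 8 genes of upper glycolysis, 6 of lower glycolysis, 5 of pyruvate and lactate handling, 4 of the pentose phosphate pathway and 3 of the hypoxia response.

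Glycolysis splits glucose into pyruvate in the cytosol and yields ATP without oxygen. Its early products also feed the pentose phosphate pathway, which makes NADPH, the electron donor of the phagocyte oxidase and of glutathione recycling, and ribose for nucleotides. Hypoxia-inducible factor 1 (HIF-1) is a transcription factor whose alpha subunit, encoded by Hif1a, is degraded when oxygen is plentiful, and many glycolytic genes are among its targets. Myeloid cells are known to raise glycolysis when they are activated, and microglia also import fructose and lactate.

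All mice were of a mixed C57BL/6J X C3HeJ F1 background and received doxycycline in the diet. It was withdrawn at 8 to 12 weeks of age, except in the 6 rNLS8 controls kept on it. The disease model, rNLS8, carries NEFH-tTa, a doxycycline-repressed activator under the neurofilament heavy chain promoter of neurons, and tetO-hTDP43, a human TDP-43 that stays in the cytoplasm. The transgene is thus driven in neurons and not in the microglia measured here. The early disease group comprised 7 rNLS8 libraries after 2 weeks without doxycycline, and the late disease group 7 after 6 weeks without it. The recovery group comprised 7 rNLS8 libraries after 6 weeks without doxycycline and 1 week with it again. The 14 controls were 6 rNLS8 libraries kept on doxycycline, and 8 of wild-type (WT) littermates, of which 4 had 2 weeks without doxycycline, 1 had 6 weeks without it, and 3 had 6 weeks without and 1 week with it. Libraries also carried a date code. All recovery libraries had the code 0803, which no other library had, so recovery and date code cannot be told apart.

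Libraries held between 13.9 M and 20.4 M expected counts. The 10 microglial markers, P2ry12 and Csf1r among them, summed to between 45609 and 83963 CPM (counts scaled to a common library total) over all libraries. In late disease 5 of the 10 fell (50%, against 6.39% of all genes tested). Their sums there were 45609 to 70717 CPM, against 64501 to 83963 CPM in controls. Neutrophil markers stood apart in recovery, where 12 of the 13 tested rose (92.3%, against 2.87% of all genes tested). The sum of the 15 markers ran from 800 to 7933 CPM there, against 456 to 859 CPM in controls. In controls Csf3r made up most of it and Mpo was at 0 in every library. Csf3r alone of the 13 rose in late disease (7.69%, against 9.01% of all genes tested), and 8 of the 13 had a negative change. Csf3r stood at 751 ± 70.7 CPM in late disease (SD, n = 7) and at 567 ± 85.4 in controls (SD, n = 14). Monocyte markers summed to 63.6 to 602 CPM in recovery, 28.7 to 142 CPM in late disease and 3.67 to 25.4 CPM in controls. Of the 7 tested, 6 rose in recovery (85.7%, against 2.87% of all genes tested). Fn1 and Ms4a4c rose in late disease (28.6%, against 9.01%). Of 8 markers of T cells and natural killer cells, 0 passed the filter on low counts, and Cd3e and Cd3g were at 0 in every library. The sum of the 8 ran from 0.18 to 6.15 CPM in recovery and from 0 to 0.38 CPM in controls. In bulk RNA, fewer cells of a type and less RNA per cell cannot be told apart. The labels name no pooling of mice, and p-values measure the spread between libraries.

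Among the 32 genes, transcript levels compared per length (TPM) spanned a wide range in the 14 controls. Ldhb, the lactate dehydrogenase subunit of oxidative tissues, was highest at 653 ± 112 TPM (SD, n = 14), and its level exceeded that of the next gene by more than the larger SD. Eno1, an enolase, stood at 326 ± 83.6 TPM, Gapdh at 318 ± 62.7, Aldoa, an aldolase, at 295 ± 55.7 and Ldha, the other main lactate dehydrogenase subunit, at 264 ± 27.0. Eno1, Gapdh, Aldoa and Ldha each differed from the next of them by less than the larger SD. Over the whole order, 5 of the 31 neighbouring pairs were apart by more than the larger SD and 26 were not. The lowest were the muscle and platelet phosphofructokinases Pfkm (4.97 ± 2.29 TPM) and Pfkp (1.22 ± 1.08), the brain aldolase Aldoc (3.31 ± 2.30) and the prolyl hydroxylase Egln3 (1.91 ± 1.34). Pfkm, Pfkp and Aldoc were each listed at 0 in at least 1 control.

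**Figure D1:**
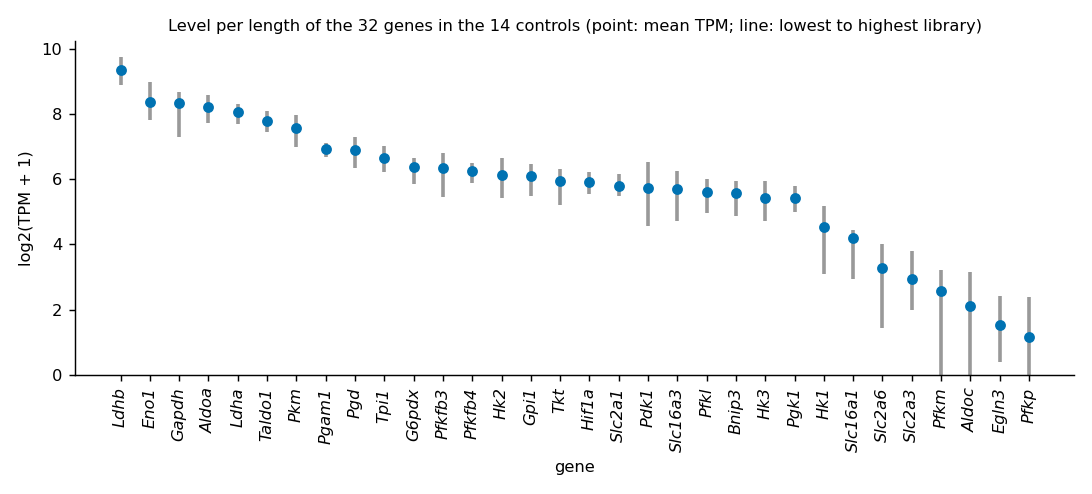
Level per length of the 32 genes in the 14 control libraries, as log2(TPM + 1) on the y axis, with genes on the x axis in order of their mean. Points are means and lines run from the lowest to the highest library; Ldhb stands above the rest, at a mean of 653 TPM.

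The mean of log2(CPM + 0.5) over the 32 genes, a description with no test, was level with controls in early disease and higher in late disease and in recovery. In controls the lowest, median and highest libraries were at 5.84, 6.08 and 6.27. The early disease libraries, at 5.97, 6.03 and 6.19, lay within that range. Late disease ran from 5.90 through a median of 6.30 to 6.46, and recovery from 6.22 through 6.48 to 6.54. Group means were 6.06 ± 0.13 (SD, n = 14) in controls, 6.05 ± 0.08 in early disease, 6.25 ± 0.18 in late disease and 6.403 ± 0.13 in recovery (SD, n = 7 each). Neither disease group nor the recovery group was clear of the controls, but 4 of the 7 late libraries and 6 of the 7 recovery libraries exceeded every control. The 3 WT controls that shared the doxycycline schedule of recovery had a mean of 6.19 ± 0.08 (SD, n = 3), above the 6.02 ± 0.14 of the 6 rNLS8 controls (SD, n = 6).

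**Figure D2:**
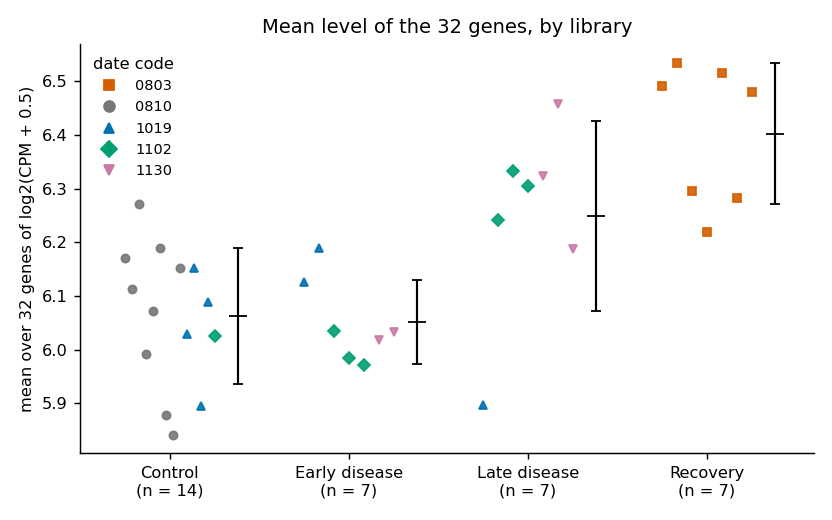
Mean of log2(CPM + 0.5) over the 32 genes (y axis) in each library, by group (x axis); marker shape and colour give the date code, and bars the group mean ± SD. LateDisease 1, the only late library of date code 1019, lies at 5.90, below most controls, and the recovery libraries lie between 6.22 and 6.54.

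Changes are log2 fold changes with standard errors (SE) from edgeR's quasi-likelihood test, and calls were made where the p, adjusted over all genes tested by the Benjamini-Hochberg method, was under 0.05. In early disease DESeq2 called 0 of the 32 genes, and 1.23% of all genes it tested. In edgeR 0 of the 32 passed, where 0.00741% of all genes tested were called. At an unadjusted edgeR p under 0.05 were 2 of the 32 and 1703 of all 13501 genes. In late disease 7 of 32 (21.9%) rose and none fell, against 9.01% higher and 6.39% lower (15.4% in either direction) among all genes tested. In recovery 9 of 32 (28.1%) rose and none fell, against 2.87% higher and 1.1% lower, or 3.98% in either direction. The median change of the 32 genes was 0.15 in late disease and 0.30 in recovery, beside 0.02 and -0.01 over all genes tested. Pkm, Gpi1, Slc2a6, Pgd and Tkt passed in both comparisons, which share their controls.

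Late disease did not keep these calls when dates were held apart. With the date code as a term and the recovery libraries left out, 0 of the 32 genes passed in late disease, where 4 of all 13211 genes tested did; the changes of the 7 genes then ran from 0.21 (Tkt) to 1.22 (Slc2a6). Of the 14 controls, 9 had the date code 0810, which no disease library had. Against the 5 controls of shared date codes, all of them WT, Hif1a alone of the 32 passed (adjusted p = 0.0382), and 191 genes passed over all. The 6 rNLS8 controls all had the code 0810, so this set differs from the 14 in genotype as well as in date. Within date code 1102, with 3 late libraries and 1 control, 22 of the 32 genes were higher in late disease, and within 1019, with 1 late library and 4 controls, 9 were. LateDisease 1 was that library of 1019. Without it 9 of the 32 genes passed in late disease, without LateDisease 6 there were 5, and without both there were 4. Without both, 765 of all 13832 genes tested passed.

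Within recovery, the libraries high in neutrophil markers and in monocyte markers also had high means over the 32 genes. The 4 recovery libraries with the highest sums of neutrophil markers were Recovery 3, 9, 7 and 2 (7933, 7163, 5286 and 2552 CPM). They had means over the 32 genes of 6.54, 6.48, 6.52 and 6.49, and monocyte marker sums of 602, 570, 362 and 157 CPM. Recovery 5, 8 and 4, with neutrophil marker sums of 1377, 934 and 800 CPM, had means of 6.22, 6.28 and 6.30. Their monocyte marker sums were 71.2, 63.6 and 68.0 CPM. Without those first 4 libraries, which leaves 3, 0 of the 32 genes passed and 32 of all 14325 genes tested did; the changes of the 9 genes then lay between 0.22 and 0.96, against 0.31 to 1.36 with all 7. Those 4 were also the recovery libraries with the highest means over the 32 genes. Leaving them out thus lowers the changes whatever they are chosen by. The part of other cells in the result was not tested.

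**Figure D3:**
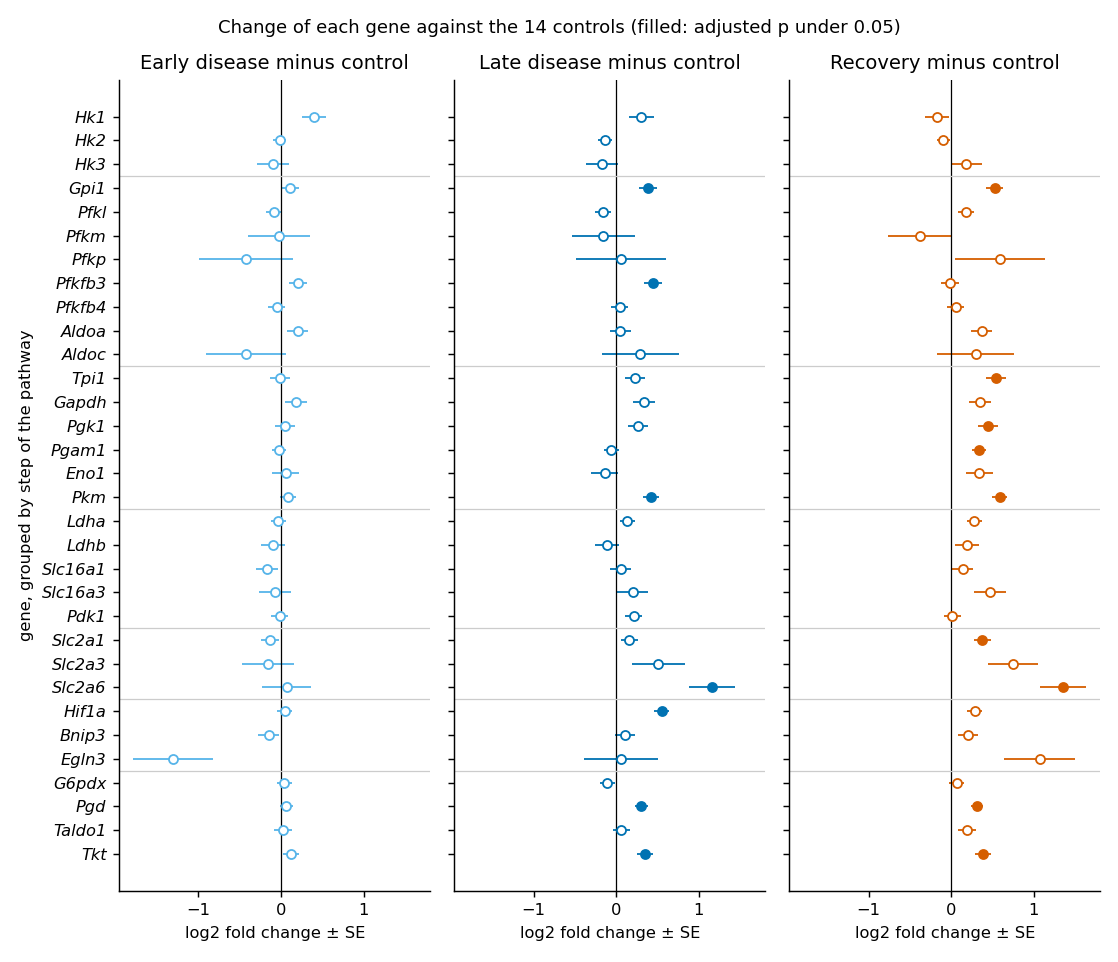
Log2 fold change ± SE (x axis) of each of the 32 genes (y axis, grouped by step of the pathway) in early disease, late disease and recovery against the 14 controls. Filled points passed an adjusted p of 0.05: 0 in early disease, 7 in late disease and 9 in recovery, each to the right of 0.

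Glucose enters the cell through facilitative transporters. Slc2a6 encodes GLUT6, a transporter found on intracellular membranes, including lysosomes, of inflammatory macrophages. Its lowest, median and highest levels were 2.32, 9.61 and 19.7 CPM in controls, 12.8, 25.4 and 33.7 CPM in late disease, and 20.1, 22.9 and 45.9 CPM in recovery. Every recovery library lay above every control, which was so for 2 of the 32 genes and for 0.43% of all genes tested (0.0148% lay below every control); in late disease 5 of 7 did. Slc2a6 rose by 1.16 ± 0.28 in late disease (adjusted p = 0.0052) and by 1.36 ± 0.28 in recovery (adjusted p = 0.00306), the largest called changes of the 32 genes. Its early disease levels, 4.78 to 24.6 CPM, overlapped the controls (change 0.07 ± 0.29).

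Slc2a1 encodes GLUT1, the widely expressed glucose transporter. It stood at 73.3, 89.7 and 116 CPM in controls (lowest, median, highest) and at 98.0, 113 and 164 CPM in recovery, where it rose by 0.38 ± 0.10 (adjusted p = 0.0296). Of the recovery libraries 7 of 7 lay above the control median but only 2 above every control, and the call was lost without Recovery 2, 7 or 9. Slc2a3, which encodes the high-affinity transporter GLUT3, had 13.8 ± 6.13 CPM in controls (SD, n = 14) and 23.8 ± 9.78 in recovery (SD, n = 7; change 0.75 ± 0.31, adjusted p = 0.178). In late disease LateDisease 6 had 68.8 CPM of Slc2a3 and the other 6 libraries 11.1 to 15.9. Slc2a5, the fructose transporter that marks microglia and is no member of the 32, did not pass in late disease, with 997 ± 409 CPM (SD, n = 7) against 1515 ± 380 in controls (change -0.60 ± 0.22, adjusted p = 0.0617).

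The hexokinases trap glucose by phosphorylation, and none of the 3 passed in any comparison. Hk2, the inducible form, had 206 ± 28.0 CPM in controls, 185 ± 25.3 in late disease and 194 ± 28.7 in recovery. Hk3, the form of myeloid cells, had 68.2 ± 14.3 CPM in controls and 61.2 ± 27.0 in late disease, where single libraries ran from 16.1 to 96.4. Hk1, the ubiquitous form, was the only one with a positive change in both disease stages, 0.40 ± 0.15 in early disease (adjusted p = 0.249) and 0.31 ± 0.15 in late disease (adjusted p = 0.159), from 48.3 ± 13.5 CPM in controls.

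In upper glycolysis Gpi1 passed in late disease and in recovery, Pfkfb3 in late disease, and the other 6 genes in neither. Gpi1 encodes glucose-6-phosphate isomerase, which makes the substrate of phosphofructokinase (chr7:34201330-34230336, minus strand, mm10). It stood at 66.5, 80.1 and 98.3 CPM in controls, at 84.9, 99.5 and 181 CPM in late disease, and at 91.4, 120 and 150 CPM in recovery (lowest, median, highest). The 181 CPM were those of LateDisease 6, and the other 6 late libraries had 84.9 to 107 CPM. Gpi1 rose by 0.39 ± 0.11 in late disease (adjusted p = 0.0124), and without LateDisease 6 its change was 0.23 with an adjusted p of 0.0809. In recovery it rose by 0.53 ± 0.10 (adjusted p = 0.0018), with 5 of 7 libraries above every control.

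Pfkfb3 encodes the enzyme that makes fructose 2,6-bisphosphate, the strongest activator of phosphofructokinase. Its levels were 103, 150 and 197 CPM in controls, 159, 188 and 331 CPM in late disease and 138, 150 and 165 CPM in recovery (lowest, median, highest). Every late library exceeded the control median, but only 3 of 7 exceeded every control. The gene rose by 0.45 ± 0.11 in late disease (adjusted p = 0.00465). In recovery its change from control was -0.01 ± 0.11, and its change from late disease, -0.46 ± 0.13, had an adjusted p of 0.0743 in edgeR and 0.0275 in DESeq2. Pfkfb4, its paralog, stood at 111 ± 15.4 CPM in controls, 114 ± 9.27 in late disease and 116 ± 19.7 in recovery.

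Pfkl, the liver-type phosphofructokinase and the main form here, had 105 ± 15.5 CPM in controls, 93.6 ± 12.6 in late disease and 118 ± 9.96 in recovery. Aldoa had 261 ± 43.7 CPM in controls and 337 ± 69.0 in recovery (change 0.37 ± 0.12, adjusted p = 0.0903). Pfkm, Pfkp and Aldoc had at most 8.36 CPM on average in any group, and the SEs of their changes from control were 0.38 to 0.57. Pfkp also overlaps Pitrm1 on the opposite strand, which had 26.5 CPM, and the libraries do not mark the strand.

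Lower glycolysis turns triose phosphates into pyruvate. Of its 6 genes Pkm rose in late disease (16.7%, against 9.01% of all genes tested), and Tpi1, Pgk1, Pgam1 and Pkm rose in recovery (66.7%, against 2.87%). In the direct test of recovery against late disease 0 of the 6 passed in edgeR, where 0.585% of all genes tested were called. At an unadjusted edgeR p under 0.05 were 3 of the 6 and 2237 of all 13501 genes. DESeq2 called Pgam1, and 4.26% of all genes it tested. Pkm encodes muscle-type pyruvate kinase, which makes pyruvate and ATP (chr9:59656368-59679375, plus strand, mm10); the tables do not separate its splice forms. It stood at 230, 262 and 341 CPM in controls, at 266, 371 and 468 CPM in late disease and at 356, 369 and 517 CPM in recovery (lowest, median, highest). Every recovery library exceeded every control, and 5 of 7 late libraries did, with LateDisease 1 at 266 CPM the lowest. Pkm rose by 0.42 ± 0.10 in late disease (adjusted p = 0.0029) and by 0.59 ± 0.09 in recovery (adjusted p = 0.000138).

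Tpi1, triose phosphate isomerase, had 73.0, 88.7 and 139 CPM in controls and 99.0, 149 and 168 CPM in recovery (lowest, median, highest), where 4 of 7 libraries exceeded every control. It rose by 0.55 ± 0.12 in recovery (adjusted p = 0.00473). Its change in late disease was 0.23 ± 0.12 (adjusted p = 0.201), with LateDisease 1 at 76.0 CPM and the other 6 libraries at 103 to 127. Pgam1, a phosphoglycerate mutase, had 130 ± 16.3 CPM in controls, 125 ± 14.6 in late disease and 165 ± 15.9 in recovery, where it rose by 0.34 ± 0.09 (adjusted p = 0.0161, and 0.0683 without Recovery 9). Against late disease Pgam1 was higher in recovery by 0.40 ± 0.10, with an adjusted p of 0.0516 in edgeR and 0.0121 in DESeq2, and 6 of 7 recovery libraries lay above every late library. Pgk1, phosphoglycerate kinase, rose by 0.45 ± 0.12 in recovery (adjusted p = 0.0318), from 45.3 ± 8.14 to 61.7 ± 10.7 CPM, and lost the call when any one of Recovery 2, 3, 7 and 9 and Controls 2 and 6 was left out.

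Gapdh and Eno1 did not pass in any comparison. Gapdh, often used as a reference gene, had 154 ± 29.4 CPM in controls, 200 ± 53.9 in late disease (change 0.33 ± 0.13, adjusted p = 0.0839) and 196 ± 41.2 in recovery (0.35 ± 0.13, adjusted p = 0.142). Near-identical copies make these genes less certain: 77 other genes share at least 300 bases at 95% identity or more with Gapdh, and the copies held 13.8% of the counts of Gapdh and copies together. That share was 15.1% for Pgk1, mostly in Pgk1-rs7, and 27.4% for Eno1, mostly in Eno1b with 84.0 CPM.

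**Figure D4:**
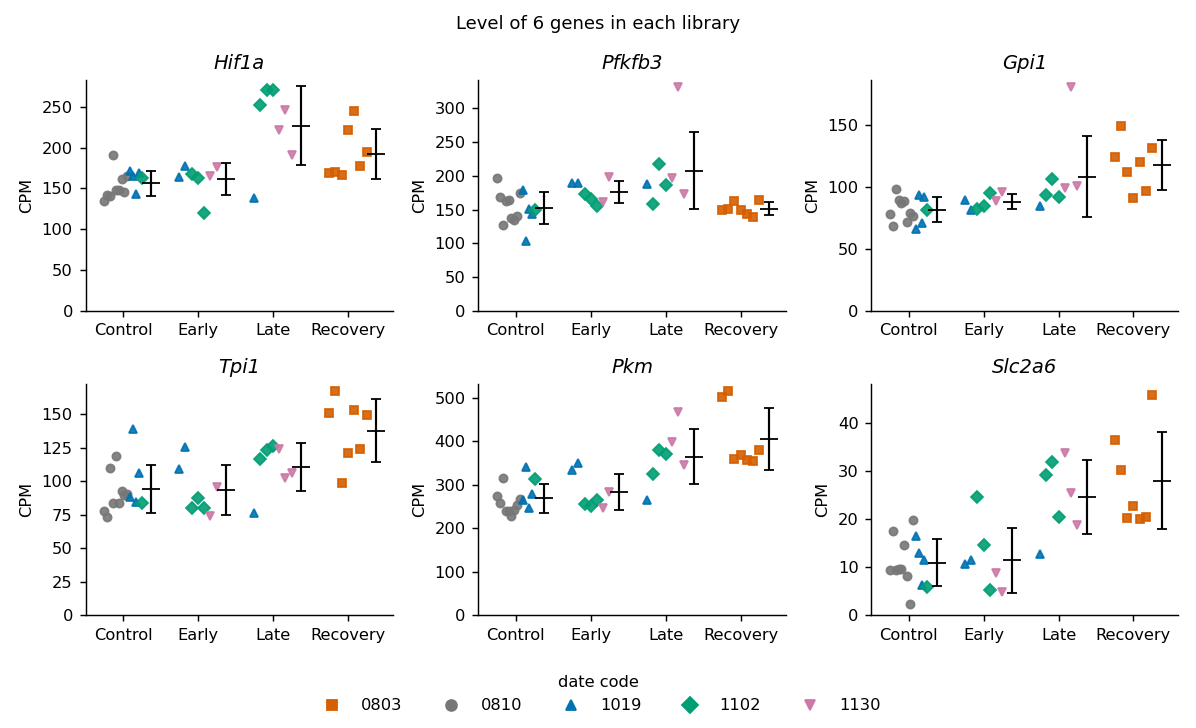
Level in CPM (y axes, from 0) of Hif1a, Pfkfb3, Gpi1, Tpi1, Pkm and Slc2a6 in each library by group (x axes); marker shape and colour give the date code, and bars the group mean ± SD. LateDisease 1 (date code 1019) lies at 138 CPM for Hif1a, where the other 6 late libraries lie at 191 to 271, and every recovery library exceeds every control for Pkm and Slc2a6.

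None of the 5 genes that decide between lactate and mitochondrial use of pyruvate passed in any comparison. Ldha, the form that favours lactate, had 248 ± 30.9 CPM in controls, 276 ± 51.6 in late disease and 302 ± 53.9 in recovery (change 0.28 ± 0.09, adjusted p = 0.0846). Ldhb had 507 ± 103 CPM in controls, 465 ± 98.5 in late disease and 588 ± 135 in recovery. Slc16a3, the lactate exporter MCT4, had 66.2 ± 17.6 CPM in controls and 91.3 ± 28.7 in recovery (change 0.47 ± 0.19, adjusted p = 0.17). Slc16a1, the transporter MCT1, had changes of 0.05 ± 0.13 in late disease and 0.14 ± 0.13 in recovery. Pdk1, the kinase that shuts off pyruvate dehydrogenase, had 121 ± 14.2 CPM in late disease against 103 ± 21.5 in controls (change 0.21 ± 0.10, adjusted p = 0.156).

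In the pentose phosphate pathway Pgd and Tkt rose in late disease and in recovery, and G6pdx and Taldo1 did not pass. Pgd encodes 6-phosphogluconate dehydrogenase, which makes NADPH downstream of G6pdx. Its levels were 126, 154 and 179 CPM in controls, 166, 174 and 246 CPM in late disease and 171, 184 and 222 CPM in recovery (lowest, median, highest). All late and all recovery libraries exceeded the control median, 3 of 7 and 5 of 7 exceeded every control, and the change was 0.31 ± 0.08 in both (adjusted p = 0.0069 and 0.0146). Tkt encodes transketolase, which returns pentoses to glycolysis, and it rose by 0.35 ± 0.10 in late disease (adjusted p = 0.0136) and by 0.39 ± 0.10 in recovery (adjusted p = 0.0155), from 115 ± 12.8 CPM in controls to 145 ± 28.7 and 151 ± 25.7. LateDisease 6 had the highest late level of both genes, 246 CPM of Pgd and 201 CPM of Tkt, and the late call of Tkt was lost without it (adjusted p = 0.0758). In recovery the call of Tkt was lost without Recovery 7 or 9 (adjusted p up to 0.0803) and that of Pgd without Recovery 7 (0.0522). G6pdx, glucose-6-phosphate dehydrogenase and the entry to the pathway, had 117 ± 13.9 CPM in controls, 109 ± 13.8 in late disease and 123 ± 23.4 in recovery. Taldo1, transaldolase, had changes of 0.06 ± 0.11 and 0.19 ± 0.11.

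Hif1a (chr12:73901375-73947530, plus strand, mm10) had the smallest adjusted p of the 32 genes in late disease. Its lowest, median and highest levels were 135, 155 and 191 CPM in controls, 119, 166 and 177 CPM in early disease, 138, 246 and 271 CPM in late disease, and 166, 177 and 245 CPM in recovery. LateDisease 1 lay within the controls, and the other 6 late libraries lay above every control, the lowest of them at 191.1 CPM against 190.6. Hif1a rose by 0.55 ± 0.09 in late disease (adjusted p = 0.00013) and was the only one of the 32 to differ between late and early disease (0.51 ± 0.11, adjusted p = 0.0201), where 0.741% of all genes tested were called and 0.6% were higher. In 6 of 7 late libraries it lay above every early library. All 7 late libraries lay above all early ones for 0 of the 32 genes and below for 0, against 0.37% and 0.356% of all genes tested. The late minus early difference was 0.83 within date code 1102 (3 against 3), 0.35 within 1130 (3 against 2) and -0.31 within 1019 (1 against 2). Over the 32 genes the late libraries were higher than the early for 26, 23 and 7 genes within those date codes. These within-date differences carry no term for sex. Within 1130 the late libraries were all male and the early all female, so stage and sex cannot be told apart there. Within 1102 the late libraries were all female, and EarlyDisease 5 and 6 were male. With date code and sex in a fit of the 14 disease libraries the difference for Hif1a was 0.49 with an adjusted p of 0.171. The call was also lost without LateDisease 3 or EarlyDisease 6 (adjusted p up to 0.0769). In recovery the change of Hif1a from control was 0.29 ± 0.09, with an adjusted p of 0.0691 in edgeR and 0.0405 in DESeq2. Antisense Gm15283 and same-strand Gm49321 overlap Hif1a, and reads of overlapping genes on opposite strands, which 14 of the 32 genes have, cannot be told apart in these libraries.

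The other genes of the hypoxia group did not pass. Bnip3, a mitophagy receptor and HIF-1 target, had 48.7 ± 10.6 CPM in controls, 52.8 ± 15.2 in late disease and 51.9 to 61.0 in recovery. Egln3, an oxygen-sensing hydroxylase that HIF-1 itself induces, had 3.11 ± 2.35 CPM in controls, 1.37 ± 0.97 in early disease (change -1.31 ± 0.48, adjusted p = 0.249) and 6.29 ± 2.41 in recovery (1.07 ± 0.43, adjusted p = 0.166).

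HIF-1 binds cores that include ACGTG, the only form searched here, which is in capitals on either strand. For this reason the promoters of the called genes with the smallest adjusted p are shown. They are the bases before a start annotated by RefSeq (GRCm38.p6), 5′ to 3′ on the gene's strand, from chr12:73907617-73907866 (plus) for Hif1a, chr2:11502102-11502340 (minus) for Pfkfb3, chr7:34230337-34230586 (minus) for Gpi1 and chr2:27027999-27028248 (minus) for Slc2a6. The window of Pkm overlaps its own exons and is not printed, and that of Pfkfb3 ends where its exon begins.
Hif1a: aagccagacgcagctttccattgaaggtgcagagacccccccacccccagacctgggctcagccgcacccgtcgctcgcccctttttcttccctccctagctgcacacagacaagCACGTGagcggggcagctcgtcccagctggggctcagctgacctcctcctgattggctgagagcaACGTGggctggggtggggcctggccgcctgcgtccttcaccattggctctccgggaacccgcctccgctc
Pfkfb3: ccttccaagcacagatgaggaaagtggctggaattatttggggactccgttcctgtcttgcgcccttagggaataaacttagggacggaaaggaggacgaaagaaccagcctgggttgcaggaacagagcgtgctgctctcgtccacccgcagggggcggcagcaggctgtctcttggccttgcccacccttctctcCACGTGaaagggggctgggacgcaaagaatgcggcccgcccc
Gpi1: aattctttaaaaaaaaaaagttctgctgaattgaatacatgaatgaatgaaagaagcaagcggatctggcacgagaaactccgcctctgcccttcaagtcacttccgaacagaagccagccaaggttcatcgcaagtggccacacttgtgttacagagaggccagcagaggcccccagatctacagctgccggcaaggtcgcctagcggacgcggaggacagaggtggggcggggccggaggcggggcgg
Slc2a6: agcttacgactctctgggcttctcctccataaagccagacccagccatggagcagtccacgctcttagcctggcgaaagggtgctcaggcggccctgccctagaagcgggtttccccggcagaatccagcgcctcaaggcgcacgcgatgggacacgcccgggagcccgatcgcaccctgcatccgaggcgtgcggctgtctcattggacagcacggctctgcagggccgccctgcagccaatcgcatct
Hif1a held the core 3 times, at 135, 134 and 70 bases before the start, where the first pair overlap on opposite strands as CACGTG. Pfkfb3 held such an overlapping pair at 53 and 52 bases, and Gpi1 and Slc2a6 held no ACGTG in these windows. Other forms of the core were not counted, there or in the shares that follow. In the 250 bases before any of their starts, 15 of the 31 genes with an entry (48.4%) held the core, against 25.1% of the 9644 tested genes and 18.5% of all 27025 genes with an entry. Counted by promoter, 18 of the 45 of these genes (40%) held it, against 16.6% of all 32851. The share was 6 of 11 (54.5%) among genes called in late disease or recovery and 9 of 20 (45%) among the others. Such a match is a description of letters and not a bound site.

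A wider list held 83 pathway genes that are not among the 32. Of the 69 tested, 6 (8.7%) rose and 3 (4.35%) fell in late disease, against 9.01% and 6.39% of all genes tested. In recovery 2 (2.9%) rose and 1 (1.45%) fell, against 2.87% and 1.1%, so both shares were near those of all genes. With the date code as a term none of the late disease calls of this list was kept, and against the controls of shared dates only those of Bhlhe40 and Galm were. Without Recovery 2, 3, 7 and 9 none of its 3 recovery calls was kept. Bhlhe40, a transcriptional repressor induced by hypoxia and by cytokines, had 3.13 ± 1.61 CPM in controls, 2.97 ± 1.16 in early disease, 11.3 ± 7.00 in late disease and 13.9 ± 7.72 in recovery. It rose by 1.83 ± 0.34 in late disease (adjusted p = 0.000599) and by 2.15 ± 0.34 in recovery (adjusted p = 0.000121), and differed between late and early disease (1.94 ± 0.42, adjusted p = 0.024). That last call was lost with the date code as a term (adjusted p = 0.0803), with the replicate block (0.0559) and without any one of EarlyDisease 1, 5, 6 and 8 and LateDisease 2 and 3 (up to 0.0814). Vegfa, the angiogenic factor, passed in late disease and in recovery (adjusted p = 0.00556 and 0.000873) but from 0.07 ± 0.15 CPM in controls to only 0.72 ± 0.50 and 1.75 ± 1.44 CPM, too few counts for a fold. Kdm3a, a histone demethylase induced by HIF-1, rose from 59.2 ± 11.8 to 80.3 ± 20.0 CPM in late disease (0.45 ± 0.12, adjusted p = 0.0089), whereas P4ha1, a collagen prolyl hydroxylase and also a target, fell from 462 ± 75.9 to 282 ± 111 CPM (-0.70 ± 0.16, adjusted p = 0.00362).

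Txnip, an inhibitor of glucose uptake whose transcription follows glucose phosphates, fell in both comparisons, from 660 ± 68.2 CPM in controls to 515 ± 80.3 in late disease (-0.37 ± 0.09, adjusted p = 0.00672) and 515 ± 72.4 in recovery (-0.36 ± 0.09, adjusted p = 0.0197). Its recovery call was lost against only rNLS8 controls (adjusted p = 0.0633), against only WT controls (0.0749) and without Recovery 2 or 5 (up to 0.0758). Its relative Arrdc4 rose in late disease (0.73 ± 0.24, adjusted p = 0.0337), from 19.5 ± 7.92 to 32.0 ± 15.2 CPM. Of the rest of glycolysis, Eno2, the neuronal enolase, and Gpd1, a glycerol phosphate dehydrogenase, rose in late disease (adjusted p = 0.0436 and 0.0422) and Galm, the galactose mutarotase, fell (-0.80 ± 0.17, adjusted p = 0.00141). Gpd1 had 23.99 ± 30.8 CPM in late disease, where only 1 of 7 libraries lay above every control, and its change of 1.14 became 0.36 without LateDisease 6. The late calls of Eno2, Gpd1 and Arrdc4 were lost in 11, 9 and 5 of the 21 fits that left out 1 library. None of the 8 tested further pentose phosphate genes, 13 of pyruvate use and 6 hypoxia regulators passed in late disease or in recovery.

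Between recovery and late disease 0 of the 32 genes passed in edgeR, where 0.585% of all genes tested were called. At an unadjusted edgeR p under 0.05 were 8 of the 32 and 2237 of all 13501 genes. DESeq2 called Pgam1 (higher) and Pfkfb3 (lower), and 4.26% of all genes it tested. Both groups had been 6 weeks without doxycycline. Beside a median change of -0.03 over all genes tested, the median change of the 32 was 0.15, with 27 positive. It was 0.01 without Recovery 2, 3, 7 and 9, and 0.04 with limma on log2(TPM + 1). Recovery 2, 3, 7 and 9 were the highest of recovery in neutrophil markers, in monocyte markers and also in the mean over the 32 genes.

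The balance of paired isozymes was compared as a log2 ratio of TPM within a library, which cancels the library's scaling apart from the 0.1 TPM added to each level. Of 24 comparisons over 8 pairs, 0 passed a two-sided exact permutation test after Benjamini-Hochberg adjustment, with 2 at an unadjusted p under 0.05. The smallest p was that of Hk2 over Hk1 in late disease, where the mean log2 ratio was 1.17 ± 0.38 (SD, n = 7) against 1.70 ± 0.38 in controls (SD, n = 14), an exact p of 0.00656 that became 0.157. Ldhb over Ldha had a mean log2 ratio of 1.02 ± 0.41 in late disease and 1.30 ± 0.24 in controls (exact permutation p = 0.0662, adjusted 0.435).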

How the data were processed

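Cells were sorted on CD11b and CD45, and cDNA was made with SMART-Seq and tagged by transposase (NexteraXT), which does not mark strand, per the labels' protocols. The authors deposited expected counts and TPM for 45706 genes, and a design table with counts of effective alignments; RSEM, DESeq2 and mm10 are named in the submitters' processing notes, with no versions given in the sources used here. Of the expected counts, 84.67% were whole within 1e-6; all were rounded. Symbols were matched by identifier for 45143 genes. The TPM columns leave out 18.3 ± 5.74% (SD, n = 9) of the total in controls of date code 0810 and 5.18 to 6.68% on average in the other controls, which lowers the TPM of those 9.

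Differences were tested with edgeR 4.0.16 (R 4.3.3): quasi-likelihood F test, TMM scaling, edgeR's low-count filter, and terms for group and sex over all 35 libraries. Sex follows the labels, which differ from the design table for Controls 7 and 8. CPM use TMM-adjusted library sizes. SE is the log2 change over the square root of F. Alternatives were DESeq2 1.42.0, limma 3.58.1 on log2 TPM, other terms, and libraries left out, some chosen after seeing the data. The fits were tested on simulated data. Copies were sought with BLAST 2.17.0. Fits, ratios (TPM + 0.1) and named genes (all 32; of other pathway lists, at most 10 called per comparison, and Slc2a5; of marker lists, at most 3) followed a written plan. The 32 genes and the lists were chosen with earlier results of these data known. Same-numbered libraries were not treated as pairs: of 37 pairs, 3 had correlated deviations over 0.1. Libraries of a group differed far beyond counting noise, by at least 19.6 chi-square per gene.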

Additional observations from a re-analysis of the deposited data

Results flagged for a closer look

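Among 99 sets of 7 libraries (32 genes and their mean in 3 groups), 6 had 1 library far from the others by Dixon's criterion; chance flags about 1 in 20. LateDisease 6 stood high for 3 genes: Gpi1 (181 CPM, others 84.9 to 107), Pfkfb3 (331 CPM, others 159 to 217) and Slc2a3 (68.8 CPM, others 11.1 to 15.9). Its microglial markers summed to 45609 CPM, the lowest of the late libraries, and its monocyte markers to 142 CPM, the highest of them; their part was not tested. LateDisease 1 stood low for Tpi1 (76.0 CPM, others 103 to 127). EarlyDisease 6 stood low for Hif1a (119 CPM, others 163 to 177). Recovery 7 stood high for Slc2a1 (164 CPM, others 98.0 to 121).

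Changes from control differed between late and early disease, by the test of late against early in edgeR, for Hif1a (0.51, adjusted p = 0.0201, higher than every early library in 6 of 7 late libraries) and for Bhlhe40 (1.94, adjusted p = 0.024, in 5 of 7). With the date code as a term both had an adjusted p of 0.0803. The call of Hif1a was lost without LateDisease 3 or EarlyDisease 6, and that of Bhlhe40 without any one of 6 of the 14 libraries.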

How the results depend on the processing

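Every called change of the 32 genes kept its direction under every alternative run. Counts of called genes among the 32 moved as follows. Limma was run on log2(TPM + 1), on log2(TPM + 0.1), and on log2(TPM + 1) without a filter. In late disease these fits called 14, 14 and 13 against 7, and 21.4%, 20.9% and 9.02% of all genes tested. The first 2 gave early disease 10 each against 0, and called 10.5% and 10.3% of all genes there. The median of all genes stood at 0.18 and 0.22 in late and early disease on log2(TPM + 1). With TPM rescaled to a full total the counts were 8 and 0, beside 14.9% and 0.0298% of all genes. Recovery had 4 against 9 with only rNLS8 or only WT controls and 0 without Recovery 2, 3, 7 and 9. Of all genes tested those fits called 5.62%, 2.2% and 0.223%. Late disease had 0 with the date code as a term, 1 with controls of shared dates and 4 without LateDisease 1 and 6. The shares of all genes were 0.0303%, 1.41% and 5.53%. Late against early disease had 2 with DESeq2 and 0 under unfiltered limma, the replicate block, the date code and the fit of disease libraries alone, against 1. In that order the fits called 2.8%, 0.116%, 0.215%, 0.227% and 0.193% of all genes. Recovery against late disease had 2 with DESeq2, 3 with rescaled TPM, 1 in each other limma fit and 1 without sex, against 0. Of all genes, 4.26% were called with DESeq2 and 1.07% with rescaled TPM. The other limma fits called 0.485% to 0.819%, and the fit without sex 0.615%.

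Leaving out 1 library gave 0 to 0 in early disease, 5 to 9 in late disease, 5 to 11 in recovery (5 without Recovery 7 or 9), 0 to 2 in late against early (0 without LateDisease 3 or EarlyDisease 6, 2 without LateDisease 1 or EarlyDisease 4) and 0 to 1 in recovery against late (1 without Recovery 4 or LateDisease 2, 4 or 5).

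Among other pathway genes, early disease (0) had 1 with DESeq2, 5 and 5 with filtered limma, 1 unfiltered, 1 with the replicate block and 4 with rNLS8 controls. In that order the fits called 1.23%, 10.5%, 10.3%, 0.855%, 4.54% and 5.48% of all genes tested. Late disease (9) had 14 and 14 with filtered limma, 14 with the replicate block, 0 with the date code, 3 with shared-date and 5 with WT controls. The shares of all genes were 21.4%, 20.9%, 17.9%, 0.0303%, 1.41% and 7.58%. Recovery (3) had 5 with DESeq2, 7 and 7 with filtered limma, 5 unfiltered, 6 rescaled, 7 with the replicate block, 7 with rNLS8 controls and 0 without Recovery 2, 3, 7 and 9. The shares of all genes were 5.29%, 5.71%, 5.56%, 3.15%, 5.42%, 6.76%, 5.62% and 0.223%. Late against early (1) had 2 with DESeq2 and 0 under unfiltered limma, the replicate block and the date code. Of all genes, those fits called 2.8%, 0.116%, 0.215% and 0.227%. Recovery against late (0) had 3 with DESeq2, which called 4.26% of all genes there. Leaving out 1 library gave 0 to 0, 6 to 10, 2 to 5 (5 without Control 7), 0 to 1 (0 without EarlyDisease 1, 5, 6 or 8 or LateDisease 2 or 3) and 0 to 1 (1 without LateDisease 5 or 7).

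The mean over the 32 genes differed from control by -0.01 in early disease and by 0.21 on log2(TPM + 1). On that scale late minus control was 0.35 against 0.19, recovery minus control 0.37 against 0.34, late minus early 0.14 against 0.20, and recovery minus late 0.02 against 0.15. Leaving out 1 library gave differences from control of -0.03 to 0.01, 0.15 to 0.25 and 0.32 to 0.37 in early disease, late disease and recovery, 0.16 to 0.26 for late minus early and 0.09 to 0.19 for recovery minus late. Isozyme comparisons past the test were 0 to 1 (1 without Control 14). With the replicate block, whose numbers do not pair the libraries, 8 of the 32 genes passed in late disease and 8 in recovery. Of all genes tested, 17.9% and 6.76% passed with it.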
